A study of Mus musculus with 4 samples.

Results

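Cytochrome P450 genes were examined in whole kidneys from mice without Usp2, a ubiquitin-specific protease, and from their wild-type littermates. The members were the array rows annotated with a single gene symbol that reads Cyp followed by a digit, leaving out Cyp51, Cyp24a1 and Cyp27b1, which belong to cholesterol and vitamin D metabolism. This gave 85 genes of the 19934 tested, each with 1 row: 3 of family Cyp1, 45 of Cyp2, 6 of Cyp3, 16 of Cyp4 and 15 of the other families. The symbols of all 85 matched a RefSeq gene table, which lists 82 as protein-coding and 3 as transcribed pseudogenes. Both groups were C57BL6/N males of 12 weeks, dissected at Zeitgeber time 12, the hour at which the labels place the daily peak of Usp2. The groups were WT (genotype WT, 2 pools) and Usp2-KO (genotype Usp2-KO, 2 pools), with kidney RNA of 3 mice in each pool, and no treatment is named for either. The pools were made from 6 littermate pairs, and the series' design text states that pairing was kept between pools. It does not state which pools are partners. Pools of the same number are taken as partners in the littermate comparisons below, a reading of the pool numbers. The labels do not say how the Usp2 allele was made or whether it is absent from all tissues. Pooling hides the spread between animals, so every SD and p given here measures the spread between pools.

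P450 enzymes are heme proteins of the endoplasmic reticulum or the mitochondria that insert an oxygen atom into their substrates, with electrons passed on by reductases, cytochrome b5 or ferredoxin. Families Cyp1 to Cyp3 act mainly on drugs and other foreign compounds, on steroids and, for Cyp2c and Cyp2j, on arachidonic acid. Family Cyp4 hydroxylates fatty acids, and the other families make or break down steroids, bile acids, oxysterols and retinoic acid. In mouse kidney many P450 genes are expressed in the proximal tubule, and several of them depend on androgen.

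The genes of largest difference in either direction, Cyp2b10 and Cyp2d11, lie in clusters of close copies. The DNA just before the start is therefore shown for them and for some near copies from the RefSeq promoter table (GRCm38.p6). Other genes of these subfamilies, among them Cyp2b19, Cyp2b23, Cyp2d10, Cyp2d26 and Cyp2d40, also had an entry but are not printed. Of the 85 members 62 had an entry, with 70 windows in all. Each window printed here is the 250 bases before the annotated start, 5′ to 3′ on the strand of the gene. Capitals in the Cyp2b windows mark AGGTCA, the core of nuclear receptor sites, and capitals in the Cyp2d windows mark TATAAA or its reverse complement TTTATA.

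Cyp2b10 (chr7:25897408-25897657, plus strand): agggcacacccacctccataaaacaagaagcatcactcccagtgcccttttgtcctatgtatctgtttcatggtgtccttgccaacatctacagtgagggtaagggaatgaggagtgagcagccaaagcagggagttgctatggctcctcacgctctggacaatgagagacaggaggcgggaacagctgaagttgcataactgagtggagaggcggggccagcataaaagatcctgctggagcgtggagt
Cyp2b13 (chr7:26061245-26061494, plus strand): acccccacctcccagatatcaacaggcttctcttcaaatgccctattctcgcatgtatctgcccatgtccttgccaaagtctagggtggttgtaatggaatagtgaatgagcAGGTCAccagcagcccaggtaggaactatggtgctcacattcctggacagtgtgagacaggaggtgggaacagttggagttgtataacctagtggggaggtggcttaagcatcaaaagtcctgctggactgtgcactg
Cyp2b9 (chr7:26173159-26173408, plus strand): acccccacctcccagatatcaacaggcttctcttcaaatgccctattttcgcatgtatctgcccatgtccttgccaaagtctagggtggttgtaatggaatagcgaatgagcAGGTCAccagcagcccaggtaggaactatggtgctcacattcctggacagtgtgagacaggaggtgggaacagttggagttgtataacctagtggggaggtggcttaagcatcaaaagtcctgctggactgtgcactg
Cyp2d9 (chr15:82452127-82452376, plus strand): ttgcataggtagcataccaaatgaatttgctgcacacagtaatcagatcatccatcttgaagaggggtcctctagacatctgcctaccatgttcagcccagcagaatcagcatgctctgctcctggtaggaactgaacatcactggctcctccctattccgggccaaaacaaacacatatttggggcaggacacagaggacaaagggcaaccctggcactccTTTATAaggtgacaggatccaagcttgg
Cyp2d11 (chr15:82394023-82394272, minus strand): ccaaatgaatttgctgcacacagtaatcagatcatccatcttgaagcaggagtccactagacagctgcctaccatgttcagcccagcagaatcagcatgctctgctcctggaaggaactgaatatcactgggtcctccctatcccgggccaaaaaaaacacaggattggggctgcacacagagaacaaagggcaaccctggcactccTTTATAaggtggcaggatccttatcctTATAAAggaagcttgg

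The windows of Cyp2b9 and Cyp2b13 differed at 2 of 250 bases, and both held AGGTCA starting 138 bases before the start. The window of Cyp2b10 had 75.8% identical bases with either of them over 240 aligned positions and held no AGGTCA on either strand. AGGTCA on either strand was also found for Cyp2b19 and Cyp2b23, whose windows are not printed and which differed by -0.08 and -0.14. The string thus occurred in Cyp2b genes of both directions. Cyp2d9 and Cyp2d11 were identical at 91.9% of 234 aligned positions. Cyp2d9 held TTTATA 28 bases before the start, and Cyp2d11 held TTTATA 43 and TATAAA 16 bases before the start. Among the 70 member windows, 32.9% held TATAAA on either strand, against 12.4% of all 32851 windows in the table, and 22.9% held AGGTCA on either strand, against 14% of all. The palindrome CACGTG, an E-box, was in 1.43% of member windows (Cyp2j6) and 6.02% of all. TTATGTAA, a D-box letter string sought on both strands because Dbp, Tef and Hlf bind such elements, was in 0 of the 70 member windows and in 0.819% of all. These shares describe letters in a short window, and members of a cluster share much of their sequence.

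The 4 arrays were alike as a whole. Their medians lay between 7.44 and 7.46 on the log2 scale, and pools of one genotype correlated at 0.998 across genes, which are not independent replicates. Usp2 itself was at 11.6 and 11.7 in the WT pools and at 7.65 and 7.60 in the Usp2-KO pools, a difference of -4.04 (limma adjusted p = 2.8e-08). It was the only gene past an adjusted p of 0.05 over all 19934 genes (0.00502%). The labelled tissue carried its markers: 10 proximal tubule genes such as Lrp2 and Slc34a1 had mean log2 values between 11.94 and 14.05, with a median difference of 0.01 between genotypes.

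**Figure D1:**
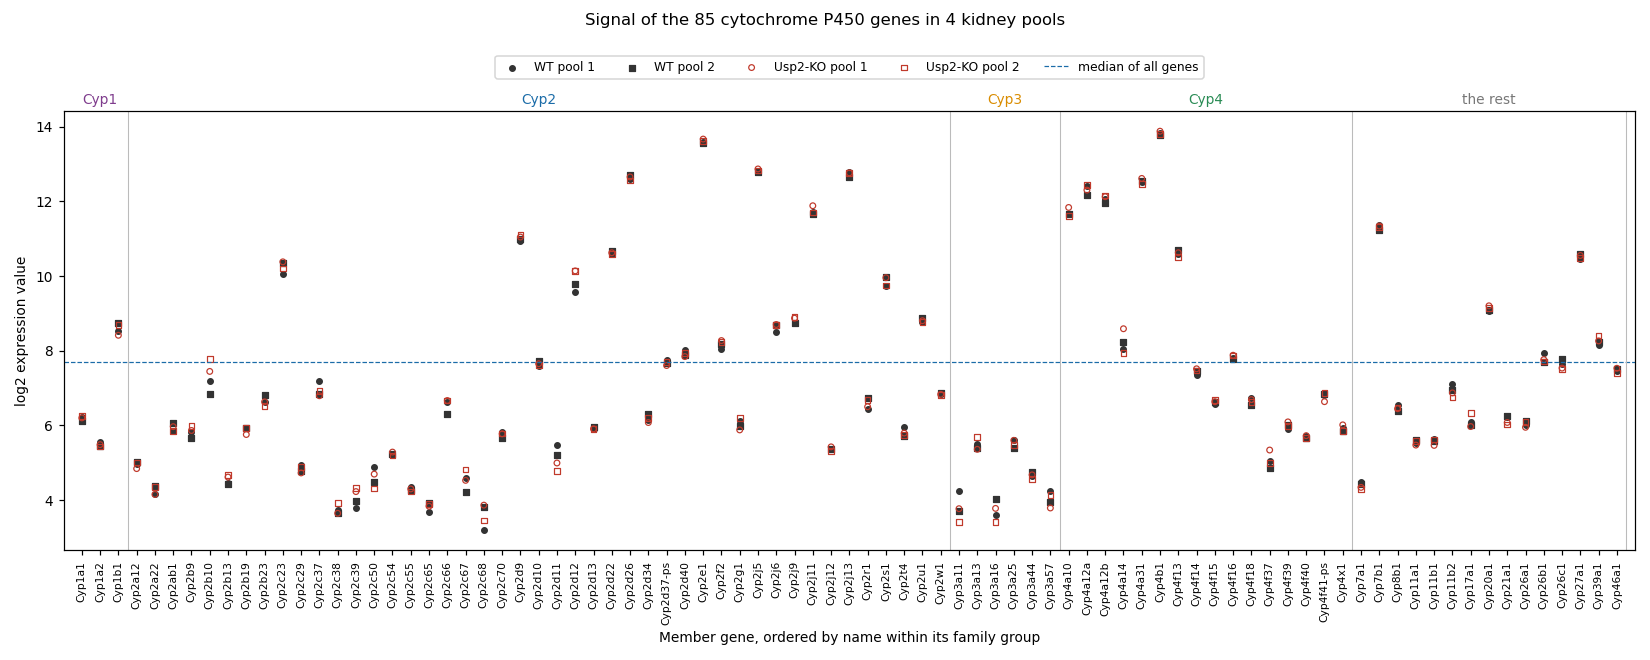
log2 expression value (vertical axis) of each of the 85 P450 genes (horizontal axis, grouped by family) in the 2 WT pools (filled) and the 2 Usp2-KO pools (open); circles are pool 1, squares pool 2, and the dashed line is the median of all genes, 7.71. For most genes the 4 points nearly coincide, and they spread visibly for Cyp2b10, Cyp2c68, Cyp4a14 and several Cyp3a genes; heights of different genes are not comparable.

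No P450 gene passed the adjusted threshold. The members as a whole were near the background of all genes in share higher, median difference and share at an unadjusted p under 0.05. Usp2-KO kidney had higher values for 43 of the 85 members (50.6%, beside 47.5% of all genes) and lower values for 42. The median difference was 0.006 on the log2 scale, against -0.006 over all genes. At an unadjusted p under 0.05, 8 members (9.41%) passed, 4 higher and 4 lower, and 9.11% of all genes did (5.22% higher, 3.88% lower). The 2 groups of pools did not overlap for 24 members (28.2%), against 38.9% of all genes. In 18 of them both Usp2-KO pools were above both WT pools, a share of 21.2% beside a background of 19.8%, and in 6 they were below, a share of 7.06% beside 19.1%. Both littermate comparisons were higher for 23 members (27.1%, beside 26.1% of all genes) and lower for 16 (18.8%, beside 25.3%). For the other 46 (54.1%) they had opposite signs, beside 9527 of all 19934 genes. The difference was larger than 0.2 in either direction for 10 members (11.8%), against 7.71% of all genes. Pools of one genotype also differed more for members than for genes in general: the median gap between the WT pools was 0.12 for the members and 0.07 for all genes. With 2 pools on each side the exact permutation test, two-sided, reaches no p below 0.333, so single genes rest on the limma fit, whose SE draws on all genes.

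The signal of many members was low. Of the 85, 40 lay at or below the lower quartile of all genes, a mean log2 value of 6.31, which is called low signal here, and 18 at or above the upper quartile of 9.20. The deposited values carry no detection calls, so signal and background cannot be told apart for the low ones, and because a row's signal depends on its probes, signals of different genes are not compared. Signal and direction moved together over the whole array: 56.2% of all genes above the median signal were higher in Usp2-KO kidney, and 38.8% of those at or below it. Members followed the same split, with 20 of 29 higher above the median and 23 of 56 at or below it. Its part in the results by family was not tested.

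**Figure D2:**
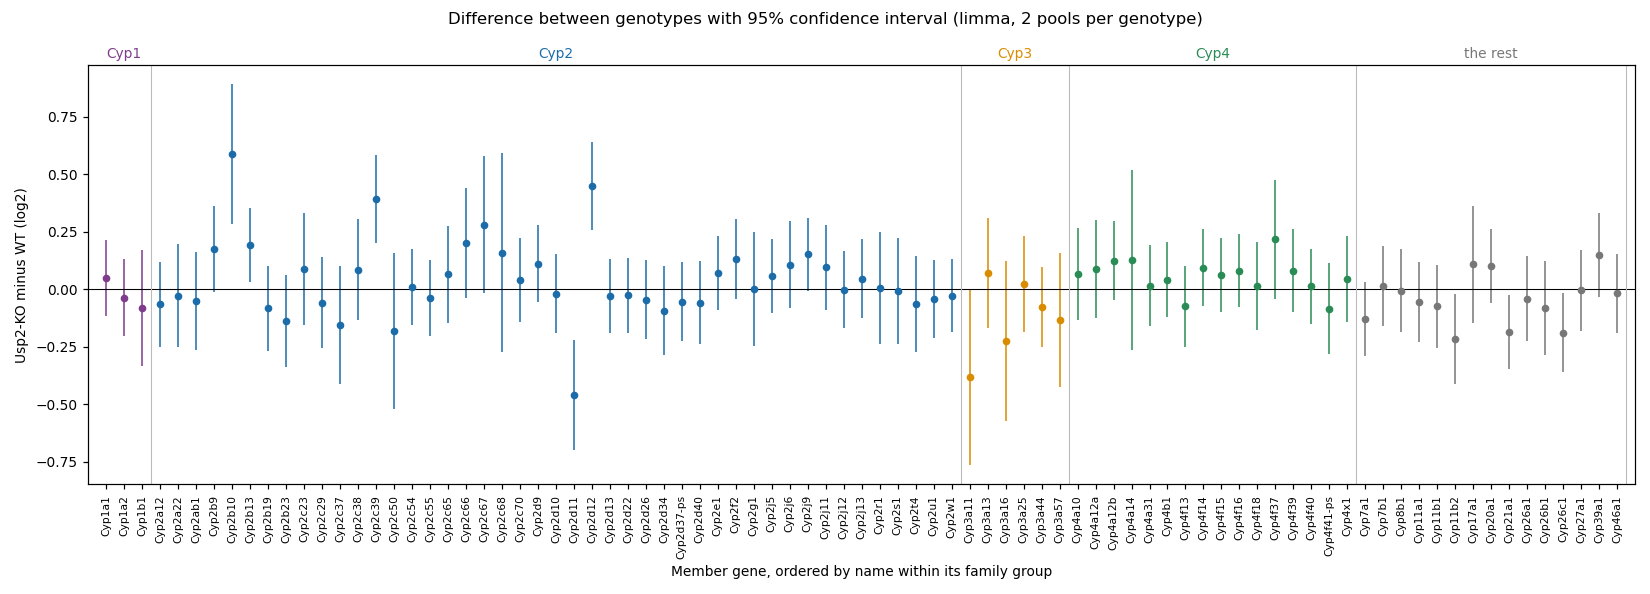
Usp2-KO minus WT on the log2 scale (vertical axis) with its 95% confidence interval from limma for each of the 85 genes, coloured by family group. The intervals of Cyp2d12, Cyp2b10, Cyp2c39 and Cyp2b13 lie above 0, those of Cyp2d11, Cyp26c1, Cyp11b2 and Cyp21a1 lie below it, and all others include it.

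The Cyp1 genes, targets of the aryl hydrocarbon receptor that oxidise polycyclic hydrocarbons and estrogens, showed little difference. Cyp1a1 was at 6.22 and 6.13 in the WT pools and at 6.20 and 6.25 in the Usp2-KO pools. Cyp1b1, the member of this family found mostly outside the liver, was at 8.52 and 8.75 in WT and at 8.41 and 8.70 in Usp2-KO kidney. Cyp1a2 differed by -0.04. The groups overlapped for all 3 genes, and the sizes of their differences were at most 0.08 with an SE of 0.07 to 0.11.

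In the Cyp2 family 22 of 45 genes were higher and 23 lower, with a median of -0.001 (0.04 in the pool 1 littermates and 0.02 in the pool 2 littermates). Without overlap of the groups 12 were higher (26.7%, beside 19.8% of all genes) and 2 lower (4.44%, beside 19.1%). At an unadjusted p under 0.05, 4 were higher and 1 lower, beside 5.22% and 3.88% of all genes. Its subfamilies, which are mostly clusters of neighbouring genes, differed in their counts. The higher genes were 3 of 5 in Cyp2b, 9 of 13 in Cyp2c, 2 of 10 in Cyp2d and 5 of 6 in Cyp2j. The median difference was 0.17 for Cyp2b, 0.06 for Cyp2c, -0.04 for Cyp2d and 0.08 for Cyp2j.

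The member of largest difference was Cyp2b10, the classic target of the constitutive androstane receptor and of phenobarbital. Its log2 value was 7.20 and 6.85 in the WT pools (7.03 ± 0.25, SD, n = 2 pools) and 7.45 and 7.78 in the Usp2-KO pools (7.61 ± 0.24). Both Usp2-KO pools were above both WT pools, but the nearest of the 2 groups were 0.25 apart, as large as the SD within each. The difference was 0.59 (SE 0.13, 95% confidence interval 0.28 to 0.89), or 1.5-fold, with an unadjusted p of 0.00183 and an adjusted p of 0.286 by limma. It was 0.25 in the pool 1 littermates and 0.93 in the pool 2 littermates. With a pool left out it ranged from 0.41 to 0.76.

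Cyp2b13 and Cyp2b9, the genes that come next to Cyp2b10 on chromosome 7 among those tested, are known for higher expression in female than in male liver. Cyp2b13 was at 4.46 and 4.43 in WT and at 4.62 and 4.66 in Usp2-KO kidney, a difference of 0.19 (SE 0.07, adjusted p = 0.461 by limma). Cyp2b9 was at 5.82 and 5.67 in WT and at 5.86 and 5.98 in Usp2-KO kidney, a difference of 0.17 (SE 0.08, adjusted p = 0.572 by limma). For both genes the Usp2-KO pools were the higher ones without overlap, though for Cyp2b9 the nearest pools were 0.04 apart. Farther along the chromosome, Cyp2b23 and Cyp2b19 differed by -0.14 and -0.08 with overlapping groups. Cyp2b9 and Cyp2b13 both have low signal, and rows of genes as alike as Cyp2b9 and Cyp2b13 can share signal, so their values are uncertain as separate measurements.

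**Figure D3:**
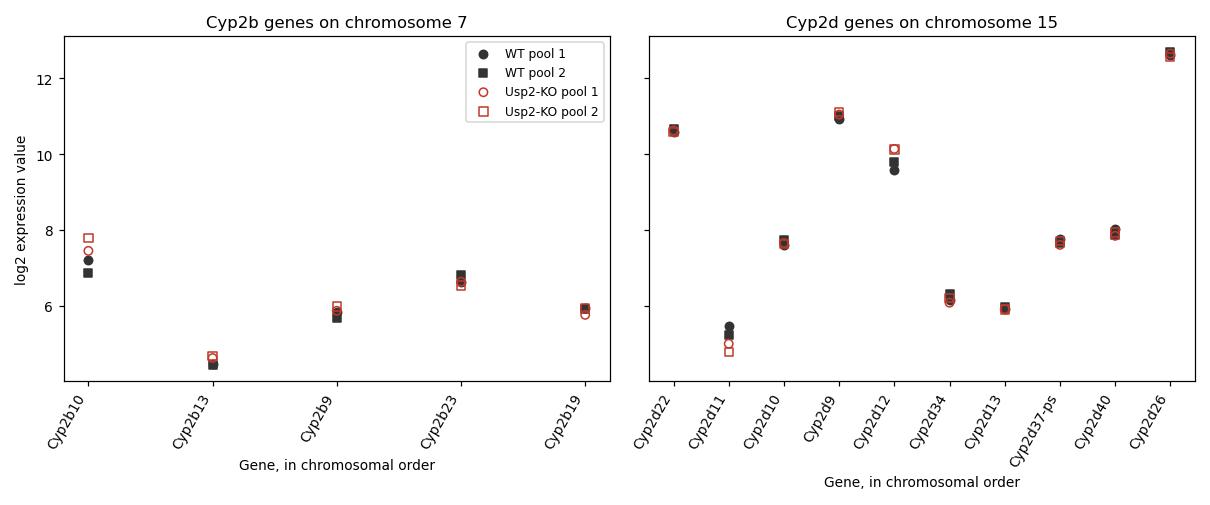
log2 expression value (vertical axis) of the 5 Cyp2b genes on chromosome 7 and the 10 Cyp2d genes on chromosome 15, in chromosomal order (horizontal axis, not to scale), in WT (filled) and Usp2-KO (open) pools. Open symbols lie above filled ones for Cyp2b10, Cyp2b13, Cyp2b9, Cyp2d9 and Cyp2d12 and below them for Cyp2d11, while for the others they overlap.

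The Cyp2d cluster of chromosome 15, drug and steroid hydroxylases, held genes of opposite direction beside genes with small differences. Cyp2d12 was at 9.58 and 9.79 in the WT pools (9.68 ± 0.14, SD, n = 2 pools) and at 10.14 and 10.13 in the Usp2-KO pools (10.13 ± 0.01). It had the smallest p of all members: the difference was 0.45 (SE 0.08, 95% confidence interval 0.26 to 0.64), or 1.36-fold, with an unadjusted p of 0.000513 and an adjusted p of 0.286 by limma. The pools did not overlap, and the gap of 0.34 between them was larger than the gap within either group. Cyp2d11 was at 5.47 and 5.22 in WT (5.34 ± 0.18) and at 4.99 and 4.77 in Usp2-KO kidney (4.88 ± 0.15). It was lower by -0.46 (SE 0.11, adjusted p = 0.286 by limma), and its groups also did not overlap. Its signal is low, while that of Cyp2d12 lies above the upper quartile.

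Along the chromosome the 10 measured Cyp2d genes are consecutive among the genes tested. In that order their differences were -0.03 for Cyp2d22, -0.46 for Cyp2d11, -0.02 for Cyp2d10, 0.11 for Cyp2d9, 0.45 for Cyp2d12, -0.09 for Cyp2d34, -0.03 for Cyp2d13, -0.05 for Cyp2d37-ps, -0.06 for Cyp2d40 and -0.05 for Cyp2d26. Cyp2d9, the male-predominant testosterone hydroxylase, was at 10.93 and 11.01 in WT and at 11.05 and 11.11 in Usp2-KO kidney. Its groups did not overlap, but the adjusted p was 0.696 by limma. Cyp2d26 was at 12.61 and 12.70 in WT and at 12.66 and 12.56 in Usp2-KO kidney, with overlap. Cyp2d11 and Cyp2d12 thus differed in opposite directions, while the other 8 genes differed by 0.11 or less in size. Whether their rows also take up signal of near copies was not tested.

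Among the Cyp2c genes, which include arachidonic acid epoxygenases, Cyp2c39, a retinoic acid hydroxylase, had the largest difference. It was at 3.79 and 3.97 in WT (3.88 ± 0.13, SD, n = 2 pools) and at 4.23 and 4.32 in Usp2-KO kidney (4.27 ± 0.07), a difference of 0.39 (SE 0.08, adjusted p = 0.286 by limma). The groups did not overlap and both littermate comparisons were alike, at 0.43 and 0.35. The row lies at percentile 3.87 of all signals, where the file cannot show that the transcript was detected. Other low-signal genes of the cluster scattered between pools: Cyp2c68 was at 3.19 and 3.81 in WT and at 3.86 and 3.45 in Usp2-KO kidney. Of the 13 genes, 9 had opposite signs in the littermate comparisons, beside 9527 of all 19934 genes. In the epoxygenase Cyp2c29 the littermate comparisons gave -0.22 and 0.10, and in Cyp2c38 they gave -0.09 and 0.26. Cyp2c66 was at 6.63 and 6.30 in WT and at 6.67 and 6.66 in Usp2-KO kidney, the other gene of the cluster without overlap (difference 0.20, SE 0.10, adjusted p = 0.61 by limma). Cyp2c67 differed by 0.28 with overlap, Cyp2c37 by -0.16 and Cyp2c50 by -0.18, and Cyp2c54, Cyp2c55, Cyp2c65 and Cyp2c70 by 0.01, -0.04, 0.06 and 0.04. Cyp2c23 was at 10.06 and 10.35 in WT and at 10.38 and 10.20 in Usp2-KO kidney, with overlap.

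The Cyp2j genes, epoxygenases of arachidonic acid, were steady between pools of one genotype, with a median gap of 0.04 between the WT pools. Cyp2j5, the main epoxygenase of this subfamily in mouse kidney, was at 12.81 and 12.77 in WT and at 12.87 and 12.83 in Usp2-KO kidney. Its 2 groups did not overlap, yet the difference of 0.06 (SE 0.07) lies within its error. Cyp2j9 was at 8.73 in both WT pools and at 8.87 and 8.89 in the Usp2-KO pools, a difference of 0.15 (SE 0.07, adjusted p = 0.565 by limma). Cyp2j13 overlapped, with 12.78 and 12.66 in WT and 12.76 and 12.77 in Usp2-KO kidney. Cyp2e1, which oxidises ethanol and acetone and is androgen-dependent in mouse kidney, was at 13.59 and 13.56 in WT and at 13.67 and 13.62 in Usp2-KO kidney. The difference for Cyp2e1 was 0.07 (SE 0.07), so an increase above 0.23 or a decrease beyond -0.09 lies outside its 95% confidence interval. Cyp2j6 differed by 0.11 without overlap, its nearest pools being 8.68 in both groups, Cyp2j11 by 0.10 with overlap and Cyp2j12 by -0.002 at a low signal.

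The other 10 Cyp2 genes had differences of 0.13 or smaller in size. Cyp2f2, the lung enzyme that activates naphthalene, was at 8.05 and 8.19 in WT and at 8.27 and 8.23 in Usp2-KO kidney, without overlap and with an adjusted p of 0.647 by limma. Cyp2r1, a vitamin D hydroxylase, was at 6.43 and 6.73 in WT and at 6.50 and 6.68 in Usp2-KO kidney. Cyp2s1 was at 9.74 and 9.98 in WT and at 9.96 and 9.75 in Usp2-KO kidney, so that the littermate comparisons gave 0.21 and -0.23. Cyp2u1, a fatty acid hydroxylase, differed by -0.04, and Cyp2w1 by -0.03 with groups that did not overlap. Cyp2a12, Cyp2a22, Cyp2ab1, Cyp2g1 and Cyp2t4 had low signal and overlapping groups, with differences from -0.07 to -0.001.

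All 6 Cyp3 genes belong to Cyp3a, drug and steroid oxidases that in liver respond to the pregnane X receptor, and all 6 had low signal. Of them 2 were higher and 4 lower, with a median of -0.10. The littermate comparisons had opposite signs for 5, beside 9527 of all 19934 genes. The median gap between pools of one genotype was 0.26 in WT and 0.33 in Usp2-KO kidney, larger than that median. Cyp3a11 was at 4.24 and 3.70 in WT (3.97 ± 0.38, SD, n = 2 pools) and at 3.77 and 3.41 in Usp2-KO kidney (3.59 ± 0.26), and the groups overlapped. It differed by -0.38 (SE 0.17, unadjusted p = 0.0511 and adjusted p = 0.551 by limma), and by -0.11 without WT pool 1. For Cyp3a16 the littermate comparisons gave 0.18 and -0.63, and for Cyp3a57 they gave -0.45 and 0.19. Cyp3a13 (0.07), Cyp3a25 (0.02) and Cyp3a44 (-0.08) lay within their SE of 0.08 to 0.11.

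The Cyp4 genes, fatty acid hydroxylases, had the most even direction of the family groups. Of 16 genes 14 were higher in Usp2-KO kidney (87.5%), where 47.5% of all genes were. Their median was 0.06 and their range -0.08 to 0.22. None passed an unadjusted p under 0.05, and 4 were higher without overlap (25% beside the background of 19.8%): Cyp4a12b, Cyp4f14, Cyp4f15 and Cyp4f16. The count fell to 9 of 16 without Usp2-KO pool 1 and to 10 of 16 without WT pool 2. It stayed at 14 without WT pool 1 and without Usp2-KO pool 2. In the littermate comparisons 8 had opposite signs, beside 9527 of all 19934 genes. Of the 16, 8 lay above the median signal, 7 of them higher.

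The Cyp4a genes, omega-hydroxylases of fatty acids, were 5 of 5 higher, by 0.02 to 0.13, and 4 of them had opposite signs in the littermate comparisons. Cyp4a12a, the androgen-dependent enzyme that makes most of the vasoconstrictor hydroxy acid from arachidonic acid in male mice, was at 12.40 and 12.17 in WT and at 12.30 and 12.44 in Usp2-KO kidney. Its near copy Cyp4a12b was at 12.08 and 11.96 in WT and at 12.13 and 12.16 in Usp2-KO kidney. The groups overlapped for Cyp4a12a and not for Cyp4a12b, whose difference was 0.12 (SE 0.08, adjusted p = 0.659 by limma). Cyp4a10 and Cyp4a14 are targets of PPARalpha. Cyp4a10 was at 11.66 and 11.65 in WT and at 11.84 and 11.61 in Usp2-KO kidney. Cyp4a14 was at 8.06 and 8.22 in WT and at 8.59 and 7.95 in Usp2-KO kidney, so that its Usp2-KO pools were the highest and the lowest of the 4. Its littermate comparisons gave 0.53 and -0.28. Cyp4a31 differed by 0.02 and overlapped.

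Cyp4b1, a kidney and lung enzyme that is androgen-dependent in mouse kidney, was at 13.82 and 13.79 in WT and at 13.88 and 13.81 in Usp2-KO kidney. The difference of 0.04 had a 95% confidence interval of -0.12 to 0.20. In the Cyp4f subfamily 7 of 9 were higher with a median of 0.06. Cyp4f37 differed by 0.22 (SE 0.11) at a low signal, and by 0.05 to 0.39 with a pool left out. Cyp4f14, an enzyme of leukotriene breakdown, differed by 0.09 (SE 0.07). Cyp4f15 and Cyp4f16 differed by 0.06 and 0.08, Cyp4f39 by 0.08, and Cyp4f18, Cyp4f40 and Cyp4x1 by 0.01, 0.01 and 0.04. The lower genes were Cyp4f13 (-0.07) and Cyp4f41-ps (-0.08), both with overlap.

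**Figure D4:**
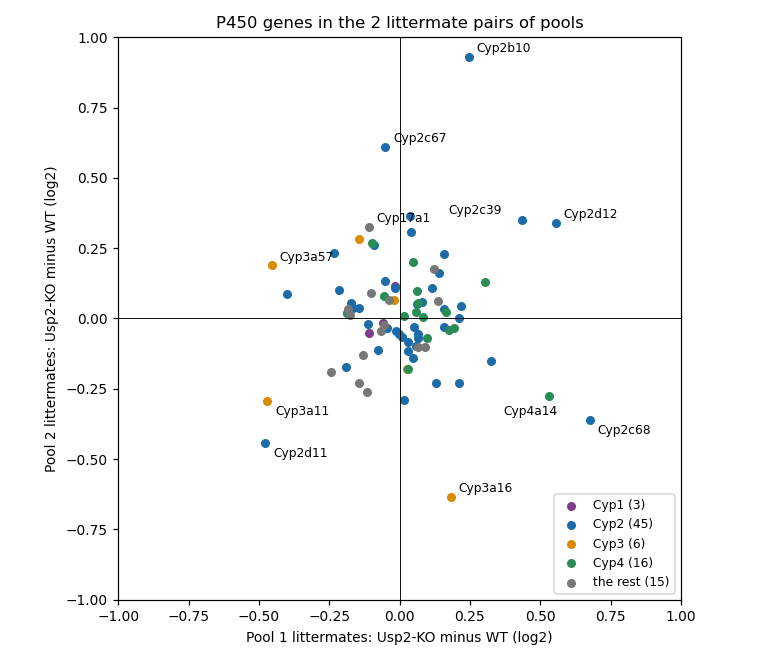
Usp2-KO minus WT on the log2 scale in the pool 1 littermates (horizontal axis) and in the pool 2 littermates (vertical axis), 1 point per gene, coloured by family group with its number of genes. Of the 85 genes 46 lie in the quadrants of opposite sign, among them Cyp4a14, Cyp2c68, Cyp3a16 and Cyp3a57, while Cyp2b10, Cyp2d12 and Cyp2c39 are positive and Cyp2d11 and Cyp3a11 negative in both.

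Of the 15 members of other families, 4 were higher and 11 lower, with a median of -0.04. With each array centred on its median, 6 were higher and 9 lower. Without overlap 2 were higher (13.3%, beside 19.8% of all genes) and 4 lower (26.7%, beside 19.1%). At an unadjusted p under 0.05, 3 were lower, beside 3.88% of all genes. Those 3 were steroid and retinoid enzymes of low or middling signal. Cyp21a1, the steroid hydroxylase of the adrenal cortex, was at 6.22 and 6.25 in WT and at 6.08 and 6.02 in Usp2-KO kidney, a difference of -0.19 (SE 0.07, adjusted p = 0.479 by limma). Cyp11b2, aldosterone synthase, was at 7.12 and 6.94 in WT and at 6.87 and 6.75 in Usp2-KO kidney, a difference of -0.22 (SE 0.09, adjusted p = 0.505 by limma). Cyp26c1, which breaks down retinoic acid, was at 7.65 and 7.77 in WT and at 7.54 and 7.51 in Usp2-KO kidney, a difference of -0.19 (SE 0.08, adjusted p = 0.507 by limma).

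The steroid-producing group as a whole had 1 of 5 measured genes higher and a median of -0.07. Cyp11a1, which starts steroid synthesis, differed by -0.06, Cyp11b1 by -0.07 and Cyp17a1 by 0.11 (-0.11 and 0.33 in the littermate comparisons). Markers of adrenal tissue, which can adhere to a kidney, are given beside these. Of 6 measured adrenal cortex genes 1 was higher, with list means of 6.35 and 6.36 in the WT pools and 6.28 and 6.33 in the Usp2-KO pools. Nr5a1, their transcription factor, differed by -0.14 without overlap of the groups, but its nearest pools were at 7.42 in WT and 7.415 in Usp2-KO kidney. Its littermate comparisons gave -0.278 and -0.005. Hsd3b1 differed by -0.11 and Mc2r, the higher gene, by 0.10, both at a low signal. Of 5 adrenal medulla genes 1 was higher, with list means of 6.50 and 6.37 in WT and 6.43 and 6.40 in Usp2-KO kidney, and Dbh differed by -0.08 and Th by -0.04. Their part in the values of Cyp21a1 and Cyp11b2 was not tested, and in whole tissue fewer cells of a type and less RNA per cell cannot be told apart.

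The Cyp26 genes, which break down retinoic acid, had differences of -0.04 for Cyp26a1 and -0.08 for Cyp26b1, both with overlap, beside the value given for Cyp26c1. Cyp2c39, which also acts on retinoic acid, had the opposite sign. Of the 6 bile acid and oxysterol genes 2 were higher, with a median of -0.01. Cyp7b1, the oxysterol hydroxylase, was at 11.38 and 11.24 in WT and at 11.34 and 11.31 in Usp2-KO kidney. Cyp27a1, the mitochondrial sterol hydroxylase, was at 10.46 and 10.58 in WT and at 10.55 and 10.48 in Usp2-KO kidney. Both overlapped and differed by 0.01 and -0.005. Cyp39a1 differed by 0.15 and Cyp7a1, the liver enzyme that starts bile acid synthesis, by -0.13 at a low signal, both without overlap and with an adjusted p of 0.627 and 0.626 by limma. Cyp8b1, which sets the make-up of the bile acid pool, and Cyp46a1, the brain cholesterol hydroxylase, differed by -0.01 and -0.02. Cyp20a1, an enzyme without a well-known substrate, was at 9.07 and 9.09 in WT and at 9.20 and 9.15 in Usp2-KO kidney, a difference of 0.10 (SE 0.07).

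Since littermate pairing was kept between pools, the fit was also made with the pool number as a block, and 5 members then passed an adjusted p of 0.05 over all genes. With the pools paired the other way round, 0 members and 1 gene passed, and Cyp2b10 had the smallest adjusted p of these 5, 0.208 by limma. Across genes, pools sharing a number deviated from their genotype's mean with a correlation of -0.121, so the data do not show which pools are partners. These 5 (5.88% of 85) stand beside 0.768% of all genes, or 153. Of those 153 genes 102 were higher (0.512% of all) and 51 lower (0.256%). With the block, limma gave an adjusted p of 0.000106 for Cyp2b10, 0.00249 for Cyp2d11, 0.00333 for Cyp2d12, 0.0162 for Cyp2c39 and 0.02 for Cyp3a11. The differences are those given above, 3 higher and 2 lower. Of the 5, 4 lie at or below the median signal, as do 56 of the 85 members and 85 of the 153 genes. Cyp3a11 passed although its groups overlapped. The block leaves each gene 1 degree of freedom of its own against 90.6 taken from all genes. Genes of low and high signal thus get about the same spread. The median gap between the WT pools was 0.09 for genes at or below the median signal and 0.06 above it. The part of this in the 5 calls was not tested.

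Lists that cut across the families regroup members already given above, so their counts are not separate evidence. These lists were chosen with earlier results of these data known. Of 11 measured omega-hydroxylases and epoxygenases of arachidonic acid 10 were higher (90.9%, beside 47.5% of all genes), with a median of 0.09. Above the median signal, where 8 of the 11 lie, 56.2% of all genes were higher. In the littermate comparisons 6 of the 11 had opposite signs. The smallest p among them were those of Cyp2c39 and Cyp2j9, and none passed over all genes. The Cyp2c genes measured in the list are Cyp2c29, Cyp2c38 and Cyp2c39, while its Cyp2c40 and Cyp2c44 had no single-symbol row. Measured Cyp2c genes whose symbols are not in the list include Cyp2c23 (0.09), Cyp2c37 (-0.16) and Cyp2c50 (-0.18). Of 10 measured genes with a known sex-dependent level in mouse kidney or liver, 9 were higher (90%, beside 47.5% of all genes) with a median of 0.08. Of these 10 genes, 7 lie above the median signal, where 56.2% of all genes were higher. The lower gene was Cyp3a44 (-0.08), at a low signal and with overlap. The 9 higher genes hold male-predominant genes such as Cyp2d9, Cyp4a12a and Cyp7b1 as well as the female-predominant Cyp2b13 and Cyp2b9. The smallest p were those of the latter pair. The first list shares Cyp4a12a and Cyp4a12b with the second.

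**Figure D5:**
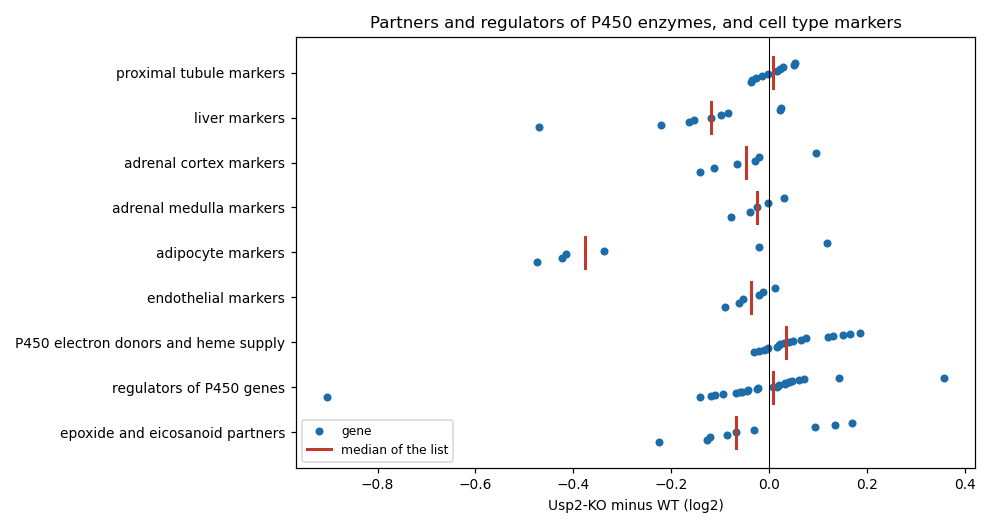
Usp2-KO minus WT on the log2 scale (horizontal axis) of each gene (points) in lists of P450 partners, P450 regulators and cell type markers (rows), with the median of each list as a red bar. Apart from Bcl6 and Nr1h4 the regulators lie between -0.14 and 0.14, and 4 of the 6 adipocyte genes lie below -0.3.

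Genes that serve P450 enzymes were measured as well. Of 18 genes for electron transfer and for heme supply or breakdown, 13 had a higher mean in Usp2-KO kidney. Their median was 0.04 and their range -0.03 to 0.19, and 8 were higher without overlap of the groups (44.4%, beside 26.5% of all genes above the median signal and 19.8% of all genes). None passed an unadjusted p under 0.05. Cpox, a step of heme synthesis, was at 10.06 and 9.98 in WT and at 10.29 and 10.12 in Usp2-KO kidney. Cyb5b, the mitochondrial outer membrane cytochrome b5, was at 11.85 and 11.92 in WT and at 12.03 and 12.04 in Usp2-KO kidney. Alas1, the rate-limiting enzyme of heme synthesis, differed by -0.01. The heme breakdown genes of the list, Hmox1, Hmox2, Blvra and Blvrb, were higher by 0.04, 0.05, 0.02 and 0.02, only Hmox2 without overlap. All 18 lie above the median signal, where higher values were the more frequent ones.

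Of 25 regulators of P450 genes 13 were higher and 12 lower, with a median of 0.01. Nr1h4, the bile acid receptor FXR, was at 9.89 and 9.86 in WT and at 10.23 and 10.23 in Usp2-KO kidney, a difference of 0.36 (SE 0.07, unadjusted p = 0.000651 and adjusted p = 0.286 by limma). Its groups did not overlap, and the gap was far larger than that within either. With the littermate block its adjusted p was 0.035. Bcl6, a repressor of sex-dependent liver genes, was at 9.98 and 9.91 in WT and at 8.53 and 9.54 in Usp2-KO kidney (difference -0.90, SE 0.25, adjusted p = 0.352 by limma and 4.76e-09 with the block). Of the receptors that act on Cyp2b10 and Cyp3a11, Nr1i3 (constitutive androstane receptor) was at 6.01 and 5.94 in WT and at 6.01 and 5.98 in Usp2-KO kidney. This is a low signal, which cannot be told apart from background. Nr1i2 (pregnane X receptor) differed by -0.02. Hnf4a, a master regulator of proximal tubule and liver genes, differed by 0.02, and Ppara by -0.06. The PAR-type clock output factors Dbp, Tef and Hlf differed by -0.09, 0.04 and 0.06.

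Enzymes that act before or beside P450 in eicosanoid metabolism had 3 of 9 genes higher and a median of -0.07. Ptgs2 was at 7.03 and 7.05 in WT and at 7.21 in both Usp2-KO pools, a difference of 0.17 (adjusted p = 0.521 by limma). Alox15 was at 6.87 and 6.73 in WT and at 6.70 and 6.45 in Usp2-KO kidney, a difference of -0.22 (adjusted p = 0.538 by limma). Ephx2, which hydrolyses the epoxides that Cyp2c and Cyp2j make, differed by 0.13 without overlap, and Ephx1 by -0.12 with overlap.

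Markers of other tissues and cells moved in part with genotype, and their part in the P450 values was not tested. Liver genes, relevant because many of these P450 enzymes are at home there, were higher in 2 of 9 and lower without overlap in 6 (66.7%, beside 19.1% of all genes). Their list mean was 8.22 and 8.04 in the WT pools and 7.99 in both Usp2-KO pools. Alb was at 9.37 and 8.56 in WT and at 8.59 and 8.40 in Usp2-KO kidney (difference -0.47 with overlap of the groups, adjusted p = 0.551 by limma and 0.00333 with the block), and Ahsg differed by -0.22. Adipocyte genes were higher in 1 of 6, with a list mean of 7.53 and 7.52 in WT and of 7.05 and 7.48 in Usp2-KO kidney, so that Usp2-KO pool 1 was the low one. Retn differed by -0.42 (unadjusted p = 0.0084, adjusted p = 0.379 by limma and 0.014 with the block) and Adipoq by -0.47 (unadjusted p = 0.0242, adjusted p = 0.463 by limma and 0.00378 with the block). Cidec differed by -0.42 and had an adjusted p of 0.0171 with the block in limma. Endothelial genes, which stand for a site of Cyp1 expression, were higher in 1 of 6 with overlap in all, and list means of 10.15 and 10.24 in WT and 10.20 and 10.11 in Usp2-KO kidney. Kdr differed by -0.09 and Cdh5 by -0.06. Of the 10 proximal tubule genes 5 were higher, with list means of 13.06 and 13.08 in WT and 13.09 and 13.06 in Usp2-KO kidney, and Slc22a6 and Slc13a3 differed by 0.05 each.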

How the data were processed

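The deposited values are log2 expression values per probe set, made by the authors with RMA (background correction, quantile normalization and probe summary) per the submitters' processing notes. Software versions and any removal of rows are not given in the sources used here. From each pool of 3 mice, 300 ng of RNA went onto an Affymetrix whole-transcript array, per the labels. Precision is limited by the number of arrays, 4.

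Of 28270 rows, 21780 had 1 gene symbol, 1617 several and 4873 none in the platform annotation. The row of highest mean was used per symbol (19934 genes), with no filter. limma 3.58.1 in R 4.3.3 (lmFit, eBayes, genotype as the term, prior of 6.87 degrees of freedom) was fitted over all genes, with Benjamini-Hochberg adjustment over all of them, and was tested on simulated data. Gene set tests were not run. The series' design text states that littermate pairing was kept between pools, without tying it to pool numbers; a second fit took pools of the same number as partners and held the number as a block. Between the genotypes, same-numbered pools' deviations correlated at -0.121, so the crossed pairing was added after the data were seen. Members and lists were chosen with earlier results of these data known. Lists held 5 to 28 genes, or 3 to 14 for those made of P450 genes, and those without a single-symbol row, such as Por, were not analysed here.

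Named members were, per family group, the 3 of strongest signal and the 3 of smallest p, all at an unadjusted p under 0.05, a fixed set of kidney and steroid P450 genes, and in each list the 2 of smallest p. Others were named after their values were seen. Promoter windows are from RefSeq and were aligned with Biopython 1.88 (match 2, mismatch -1, gap opening -5, extension -1, end gaps 0). Figures used matplotlib 3.10.9.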

Additional observations from a re-analysis of the deposited data

How the results depend on the processing

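The count of 0 members past the adjusted threshold held in limma with an intensity trend, a robust prior, filters on signal, the mean of all rows, each row taken separately, quantile normalization repeated, median-centred arrays, the crossed pairing and each pool left out. It became 5 with the littermate block (Cyp2b10 at 0.59, Cyp2c39 at 0.39, Cyp2d11 at -0.46, Cyp2d12 at 0.45 and Cyp3a11 at -0.38), which changed no other call among the 36 named members. At an unadjusted p under 0.05 the count was 8. Over all genes the count of 1 became 153 with the block, 18 with the trend and 7 with either filter. With the pools crossed, a choice made after seeing the data, it was 1, with 0 members. Members higher at an unadjusted p under 0.05, 4 in number, became 7 with centring, 7 with the block and 2 above the median signal, where 0 were lower. Members without overlap became 11 higher and 0 lower above the median signal, a filter that leaves 29 members. Above the median signal the median difference was 0.066 for all members, -0.081 for Cyp1 and 0.0695 for Cyp2. The median of all members was 0.0178 with centring and 0.0249 with quantile normalization, where it was 0.0289 for Cyp2 and -0.0804 for Cyp3.

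With a pool left out, 1 to 2 genes passed in all. The members at an unadjusted p under 0.05 were 4 to 10 higher (10 without Usp2-KO pool 1) and 1 to 5 lower (1 without Usp2-KO pool 2). Without overlap, 26 to 34 were higher and 23 to 26 lower, counts that 3 arrays make easier to reach. The median ranged from 0.0055 to 0.021 for all members, -0.0115 to 0.061 for Cyp1, 0.0075 to 0.036 for Cyp2, -0.087 to -0.0478 for Cyp3 and 0.0145 to 0.0875 for Cyp4. Of the 36 named members 15 changed sign in some setting, none of them past the threshold. Cyp27a1 was at 0.00625 with centring and Cyp7b1 at -0.00888 with quantile normalization. With a pool left out the ranges were -0.154 to 0.0055 for Cyp11b1, -0.0745 to 0.289 for Cyp17a1, -0.0855 to 0.0095 for Cyp1a2, -0.223 to 0.061 for Cyp1b1, -0.065 to 0.054 for Cyp27a1, -0.093 to 0.002 for Cyp2d26, -0.016 to 0.108 for Cyp2j13 and -0.091 to 0.231 for Cyp3a13. They were -0.086 to 0.134 for Cyp3a25, -0.305 to 0.040 for Cyp3a57, -0.049 to 0.181 for Cyp4a10, -0.0285 to 0.2005 for Cyp4a12a, -0.194 to 0.449 for Cyp4a14, -0.0605 to 0.0905 for Cyp4a31 and -0.055 to 0.082 for Cyp7b1. Except where a filter leaves fewer members or an array is missing, the cause was not tested.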

Other observations

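Of the rows annotated with several symbols, 7 name a P450 gene and belong to none of the 85 members. The row shared by Cyp2a5 and Cyp2a4 was at 12.82 and 12.87 in the WT pools and at 12.89 and 12.83 in the Usp2-KO pools. The row shared by Cyp4a32, Cyp4a31 and Cyp4a10 was at 12.37 and 12.42 in WT and at 12.53 and 12.34 in Usp2-KO kidney. The row of Cyp2c69, Cyp2c67, Cyp2c68 and Cyp2c40 differed by 0.07, and that of Cyp3a59, Cyp3a57 and Cyp3a25 by -0.02. The row of Cyp3a41b, Cyp3a44 and Cyp3a41a differed by -0.10. Another row, which names these genes and also Cyp3a11, differed by -0.09, beside -0.38 for the row of Cyp3a11 alone. The row of Cyp4v3, which also names Klkb1, differed by 0.05. None of the 7 passed in limma over all rows, and the groups overlapped for the Cyp2a and Cyp4a rows.

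The left-out genes with a single-symbol row were Cyp51, which differed by 0.17 (SE 0.07, adjusted p = 0.537 by limma), and Cyp27b1, which was at 9.25 and 9.34 in WT and at 9.52 and 9.07 in Usp2-KO kidney.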
